A study of Mus musculus with 100 samples.

Results

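Genes that skeletal muscle switches on while it regenerates or after it loses its nerve were followed in injured mouse knee joints. The set was chosen by name and holds 10 genes, the stem cell factor Pax7, the myogenic factors Myod1 and Myog, the developmental myosins Myh3 and Myh8, the cardiac actin Actc1, the acetylcholine receptor subunits Chrna1 and Chrng, the cell adhesion molecule Ncam1 and the co-repressor Runx1t1. All 10 were among the 17310 genes of the count table. Whole knee joints of MRL/MpJ, C57BL/6 and STR/ort mice were sequenced after the right knee had been injured by tibial compression of 10 to 12 N, and the uninjured contralateral knee was sequenced beside it. The labels give an age of 10 weeks for all samples. This was the age at injury, so mice of the later times were older when their joints were taken. Joints of mice at 0-day, before injury, gave 4 libraries in each strain. Injured and contralateral joints gave 5 libraries each in every strain at each of the times 1-day, 1-week and 2-weeks, except that contralateral joints of MRL/MpJ and STR/ort at 1-week gave 4. Injured mice received isoflurane and buprenorphine, so injured and contralateral joints share these agents, and the strains carry no engineered allele in the labels. The joints were dissected with small remains of soft tissue, and the muscle measured here is what stayed on the joint. The libraries of 2-weeks form another experimental batch than those of the earlier times, and batch and time cannot be told apart there.

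Muscle fibres are repaired by satellite cells, stem cells that lie under the fibre's sheath and express Pax7. Once activated they express Myod1, then Myog as they differentiate and fuse, and young fibres carry embryonic myosin (Myh3), perinatal myosin (Myh8) and cardiac actin (Actc1) until adult isoforms replace them. In an innervated adult fibre acetylcholine receptors are made almost only under the nerve ending, whereas a fibre without its nerve makes Chrna1, the fetal subunit Chrng, Myog and Ncam1 along its whole length. The promoters of receptor subunits and of many muscle genes hold E-boxes, the letters CANNTG, which are bound by myogenic factors such as Myod1 and Myog.

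The promoters of the receptor subunits Chrna1 and Chrng, of Myog, of Myh3 and of Actc1 are shown because these genes carried most of the injury differences. Each is the stretch of 250 bases before the RefSeq transcription start (GRCm38.p6), written 5′ to 3′ on the gene's strand, with every E-box in capitals. For Myh3 the start used is that of a transcript that begins inside the span of the gene given below, so the end of its window lies within that span, and distances are counted from that transcript's start. The windows are chr2:73580339-73580588 on the minus strand for Chrna1, chr1:87205561-87205810 on the plus strand for Chrng, chr1:134289754-134290003 on the plus strand for Myog, chr11:67078050-67078299 on the plus strand for Myh3 and chr2:114052876-114053125 on the minus strand for Actc1.
Chrna1: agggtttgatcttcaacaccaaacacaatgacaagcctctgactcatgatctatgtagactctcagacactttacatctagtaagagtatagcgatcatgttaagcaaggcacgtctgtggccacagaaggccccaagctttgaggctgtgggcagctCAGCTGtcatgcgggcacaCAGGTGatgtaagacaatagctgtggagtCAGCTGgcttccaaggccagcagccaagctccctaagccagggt
Chrng: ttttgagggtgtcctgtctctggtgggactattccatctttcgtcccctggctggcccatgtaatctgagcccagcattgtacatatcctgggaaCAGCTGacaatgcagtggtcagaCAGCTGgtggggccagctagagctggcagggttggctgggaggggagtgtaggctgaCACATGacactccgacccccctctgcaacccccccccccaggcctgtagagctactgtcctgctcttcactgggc
Myog: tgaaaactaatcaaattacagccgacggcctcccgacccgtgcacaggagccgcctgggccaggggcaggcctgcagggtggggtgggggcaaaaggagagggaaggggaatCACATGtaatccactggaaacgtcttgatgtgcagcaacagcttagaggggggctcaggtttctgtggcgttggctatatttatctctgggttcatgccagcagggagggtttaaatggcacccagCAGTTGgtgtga
Myh3: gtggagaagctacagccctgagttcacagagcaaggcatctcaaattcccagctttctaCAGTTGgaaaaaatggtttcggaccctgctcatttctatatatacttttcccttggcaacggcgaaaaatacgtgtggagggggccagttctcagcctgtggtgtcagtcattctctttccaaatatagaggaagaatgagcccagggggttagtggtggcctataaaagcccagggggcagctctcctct
Actc1: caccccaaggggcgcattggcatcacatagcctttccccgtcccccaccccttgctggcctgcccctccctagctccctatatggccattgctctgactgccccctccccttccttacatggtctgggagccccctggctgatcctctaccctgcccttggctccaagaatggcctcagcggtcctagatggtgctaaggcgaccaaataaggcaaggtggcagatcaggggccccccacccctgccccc

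Chrna1 and Chrng each held 3 E-boxes in these windows, and 2 of the 3 in each were CAGCTG, a form of CANNTG that reads the same on both strands. In Chrna1 the boxes began 92, 73 and 44 bases before the start, and in Chrng they began 155, 132 and 75 bases before it. Myog held 2 E-boxes, CACATG and CAGTTG, at 138 and 12 bases before the start. Myh3 held 1, CAGTTG at 191 bases before the start, and Myh8 held 1, CAAATG at 32 bases before it. No match was found in the windows of Actc1 and Pax7. The Pax7 window, chr4:139832969-139833218 on the minus strand, lies wholly within the span of the gene given below. It stands before a transcript that begins inside that span, so it does not cover the bases before the gene's outer end. Of 32851 mouse promoters of the same length, 66.2% held at least 1 CANNTG and 12.2% at least 3, while 13% held CAGCTG and 1.26% held it at least 2 times. RefSeq windows were matched for 7 of the 10 genes, and none is given for Myod1, Ncam1 and Runx1t1.

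The genes lie on 6 chromosomes of GRCm38.p6. Myh3 (chr11:67078273-67102291) and Myh8 (chr11:67277124-67308634) belong to the cluster of skeletal myosin heavy chains, and Actc1 (chr2:114047282-114052875) and Chrna1 (chr2:73563281-73580338) share a chromosome. Chrng is at chr1:87205811-87211835 and Myog at chr1:134290004-134292548. Runx1t1 is at chr4:13742628-13895056 and Pax7 at chr4:139737059-139833530. Myod1 is at chr7:46376474-46379092 and Ncam1 at chr9:49502129-49799393. Levels are in CPM, meaning counts corrected for library size by TMM scaling, and values after ± are SD for levels and SE for log2 differences. Per kilobase of exon and averaged over 100 libraries, Actc1 was the most abundant at 98.4 CPM per kilobase, ahead of Ncam1 at 6.32 and Myod1 at 4.82. Myog (1.87), Chrna1 (1.71), Myh8 (1.67) and Myh3 (1.61 CPM per kilobase) were close to each other, followed by Runx1t1 at 0.906, Pax7 at 0.164 and Chrng at 0.0322. Chrng had 0 counts in 49 libraries and fewer than 10 in 97, and Pax7 had fewer than 10 in 55, so values of both rest on few reads. Of the windows of 50 bases along the transcript, 12.1% in Myh8 and 4.76% in Myh3 were identical to a stretch of another myosin gene, and 3.02% in Chrna1 and 0.0910% in Ncam1 were shared with other genes. An antisense gene, Gm11149, overlaps the exons of Ncam1, and whether the counting used strand is not given in the sources used here.

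Total counts per library ranged from 6182016 to 20986027. The share of muscle transcripts differed widely, and 13 markers of fast muscle fibres (Ckm, Acta1, Pvalb and others) took from 1.94% of the counts in an injured STR/ort library at 1-week to 13.8% in injured MRL/MpJ replicate 4 at 2-weeks. The latter library also stood apart from its group in Myh3, Myh8, Myod1, Chrna1 and Chrng. The chondrocyte markers Acan, Col2a1, Comp and Matn3 and the osteoblast markers Bglap, Ibsp and Sp7 were detected in every group. In whole tissue, fewer cells of a type and less RNA per cell cannot be told apart. The sources do not say for every group that libraries came from separate mice, so p-values measure the spread between these libraries, which may be technical in part.

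Of the 9 contrasts of injured with contralateral joints, C57BL/6 at 1-day and STR/ort at 1-week had the most calls among the 10 genes. Being called required an adjusted p under 0.05 together with a change of more than 1.5-fold, and adjusted p-values come from edgeR's quasi-likelihood test with Benjamini-Hochberg adjustment over all genes unless another tool is named. At 1-day, 1 of the 10 genes was called between injured and contralateral joints in MRL/MpJ, higher after injury, where the background over all genes was 2.02%, with 1.53% higher and 0.497% lower. Of the same genes 5 were called in C57BL/6 (4 higher and 1 lower, background 5.6%, with 4.26% higher and 1.34% lower) and 3 in STR/ort (2 higher and 1 lower, background 4.31%, with 1.61% higher and 2.7% lower). At 1-week 0 were called in MRL/MpJ (background 3.13%, with 2.93% higher and 0.191% lower), 2 in C57BL/6 (1 higher and 1 lower, background 5.82%, with 4.75% higher and 1.07% lower) and 6 in STR/ort (5 higher and 1 lower, background 9.21%, with 5.67% higher and 3.54% lower). STR/ort joints of the same replicate number were taken as pairs at this time. With that number as a block 5 were called there, without Chrng (adjusted p = 0.0550 by edgeR). For MRL/MpJ at 1-week, Actc1 and Runx1t1 had an unadjusted p under 0.05 by edgeR and DESeq2 also called 0. Actc1 was called there by edgeR when the fit held no other groups (-0.66, adjusted p = 0.0163). With the replicate number as a block it was called too (-0.79, adjusted p = 0.00627 by edgeR). At 2-weeks 1 gene was called in MRL/MpJ (higher, background 1.16%, with 1.14% higher and 0.0173% lower), 1 in C57BL/6 (higher, background 2.95%, with 2.88% higher and 0.0693% lower) and 0 in STR/ort (background 4.66%, with 4.34% higher and 0.318% lower), where 2 genes had an unadjusted p under 0.05 by edgeR and DESeq2 called 0. At 2-weeks the labels name the animal of both joints, and with it as a block 1, 2 and 1 genes were called in the same order, the added ones being Myh8 in C57BL/6 at 0.62 ± 0.20 (SE, adjusted p = 0.0489) and Actc1 in STR/ort at 1.01 ± 0.29 (SE, adjusted p = 0.0237). The median log2 fold change over the 10 genes was 0.70 in STR/ort at 1-week, where that of all genes was -0.033, and 0.41 in C57BL/6 at 1-day, where that of all genes was -0.019. In the other strains and times it lay between -0.17 (STR/ort at 1-day) and 0.52 (C57BL/6 at 1-week).

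**Figure D1:**
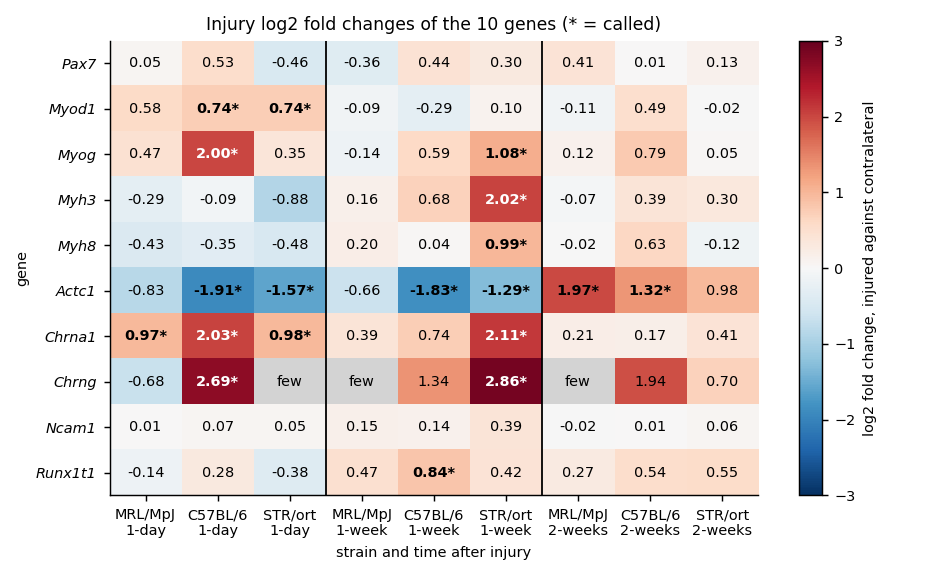
Heat map of the log2 fold change between injured and contralateral joints for the 10 genes (rows) in each strain at each time (columns), where an asterisk marks a called gene and grey cells marked "few" are comparisons in which Chrng had at most 3 counts in either group (its other fitted values also rest on few counts, given as ratios in the text). Chrna1 was called in all 3 strains at 1-day (0.97, 2.03 and 0.98) and in STR/ort at 1-week (2.11), and Actc1 was below 0 in 6 of 6 columns of 1-day and 1-week and above 0 in 3 of 3 of 2-weeks.

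Chrna1, the ligand-binding subunit of the muscle acetylcholine receptor, rose after injury in all 3 strains at 1-day. In MRL/MpJ the injured joints measured 9.97, 11.7, 8.35, 7.52 and 13.8 CPM in order of replicate number, and the contralateral joints 3.76, 7.26, 5.42, 4.84 and 5.24 CPM. All injured libraries lay above all contralateral ones, and the log2 fold change was 0.97 ± 0.22 (SE, adjusted p = 0.00586). In C57BL/6 the injured joints measured 20.7, 9.28, 16.0, 16.0 and 10.1 CPM and the contralateral joints 4.15, 3.31, 3.88, 2.65 and 3.99 CPM. The groups were again separate, and by a wider margin, with a log2 fold change of 2.03 ± 0.22 (SE, adjusted p = 6.33e-08). In STR/ort the injured joints measured 7.94, 7.27, 6.90, 5.48 and 9.56 CPM and the contralateral joints 3.92, 3.99, 2.52, 5.48 and 2.55 CPM. The lowest injured and the highest contralateral library nearly touched there, and the log2 fold change was 0.98 ± 0.23 (SE, adjusted p = 0.00454).

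At 1-week Chrna1 was called in STR/ort. The injured STR/ort joints measured 21.7, 17.5, 22.1, 17.6 and 6.87 CPM and the contralateral joints 3.52, 6.17, 3.04 and 3.26 CPM. Every injured library was above every contralateral one, with means of 17.2 ± 6.15 (SD, n = 5) and 4.00 ± 1.46 CPM (SD, n = 4) and a log2 fold change of 2.11 ± 0.31 (SE, adjusted p = 7.88e-06). This injured group had the highest mean Chrna1 of the 21 groups. In C57BL/6 the means were 9.87 ± 4.10 and 6.08 ± 1.51 CPM (SD, n = 5 each), a log2 fold change of 0.74 ± 0.27 (SE, adjusted p = 0.0782) that did not pass. In MRL/MpJ they were 6.67 ± 1.65 (SD, n = 5) and 5.23 ± 1.15 CPM (SD, n = 4), a log2 fold change of 0.39 ± 0.31 (SE, adjusted p = 0.663). At 2-weeks the log2 fold changes were 0.21 in MRL/MpJ, 0.17 in C57BL/6 and 0.41 in STR/ort, and none of the 3 passed (adjusted p = 1.00, 0.742 and 0.260).

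Chrng, the subunit that gives the fetal form of the receptor and is replaced at mature junctions, was close to the limit of detection. Injured C57BL/6 joints at 1-day held 2, 2, 2, 10 and 2 counts and the contralateral joints 2, 0, 0, 0 and 1. Most of the injured counts came from replicate 4, and the groups touched at 2 counts. Divided by total counts, 18 against 3 are a ratio of 8.032 (95% counting interval 2.345 to 42.57), and the gene was called (adjusted p = 0.0167). The call was lost without injured replicate 4 (adjusted p = 0.140) or without contralateral replicate 4 (adjusted p = 0.0659). In STR/ort at 1-week the injured joints held 5, 4, 2, 4 and 7 counts and the contralateral joints 0, 0, 2 and 0. In CPM every injured library was above every contralateral one, the summed counts of 22 against 2 are a ratio of 8.377 (95% counting interval 2.059 to 73.49), and the gene was called (adjusted p = 0.00938, or 0.0550 with the replicate number as a block). DESeq2 gave no adjusted p for either. The remaining contrasts with more than 3 counts in a group were not called, among them C57BL/6 at 1-week with 15 counts against 5, a ratio of 2.788 (0.9633 to 9.806), and STR/ort at 2-weeks with 26 against 14, a ratio of 1.613 (0.8119 to 3.342). Of those 26 counts 16 came from replicate 1. Intervals and ratios cover counting error only.

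Myog, the factor of terminal differentiation that also drives receptor genes in denervated fibres, rose in C57BL/6 at 1-day and in STR/ort at 1-week. Injured C57BL/6 joints at 1-day measured 4.07, 3.59, 3.81, 4.04 and 2.90 CPM and the contralateral joints 1.91, 1.20, 0.722, 0.540 and 0.594 CPM. The groups did not overlap, and the log2 fold change was 2.00 ± 0.39 (SE, adjusted p = 0.000330). In STR/ort at 1-week the injured joints measured 4.18, 5.48, 3.48, 7.12 and 3.39 CPM and the contralateral joints 3.52, 2.42, 1.56 and 1.58 CPM. The groups overlapped, the log2 fold change was 1.08 ± 0.30 (SE, adjusted p = 0.00980), and the call was lost without contralateral replicate 3 (0.92, adjusted p = 0.0575). In the other 7 injury contrasts the log2 fold change of Myog lay between -0.14 and 0.79 and did not pass.

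Myod1, which marks activated satellite cells and is also made by fast fibres, was called at 1-day in C57BL/6 and STR/ort, each time with overlapping groups. In C57BL/6 the injured joints measured 10.1, 5.81, 12.3, 15.4 and 9.60 CPM and the contralateral joints 9.54, 3.77, 6.77, 6.61 and 5.69 CPM, a log2 fold change of 0.74 ± 0.23 (SE, adjusted p = 0.0211). Injured replicate 4 was the highest of these libraries, and the call was lost without it (adjusted p = 0.132) or without contralateral replicate 2 (adjusted p = 0.0679). In STR/ort the injured joints measured 14.3, 6.61, 10.7, 8.55 and 7.93 CPM and the contralateral joints 5.5, 6.38, 7.01, 5.39 and 4.45 CPM, a log2 fold change of 0.74 ± 0.23 (SE, adjusted p = 0.0378). Leaving out injured replicate 1 or 3 or contralateral replicate 1, 4 or 5 ended this call, with adjusted p from 0.0700 to 0.154. The log2 fold change in MRL/MpJ at 1-day was 0.58 ± 0.21 (SE, adjusted p = 0.135), and at 1-week it was -0.095 in MRL/MpJ, -0.29 in C57BL/6 and 0.095 in STR/ort, none of which passed. The value of MRL/MpJ at 1-day was called when the summed level of 13 fast muscle genes was added as a covariate, at 0.73 ± 0.21 (SE, adjusted p = 0.0357), and with 1 and 2 factors of RUVg, which removes variation estimated from housekeeping genes, at 0.74 (adjusted p = 0.0111) and 0.72 (adjusted p = 0.0109).

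Pax7, which keeps satellite cells as stem cells, was not called in any of the 9 injury contrasts. Its log2 fold change lay between -0.46 and 0.53, and the smallest adjusted p was 0.299. In STR/ort at 1-week, where Myog and both developmental myosins rose, Pax7 measured 0.580, 0.783, 0.178, 0.610 and 0.299 CPM in injured and 0.377, 0.484, 0.329 and 0.338 CPM in contralateral joints. These groups overlapped, and the log2 fold change was 0.30 ± 0.58 (SE, adjusted p = 0.767).

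Embryonic myosin, Myh3, was called in 1 of the 9 injury contrasts, STR/ort at 1-week, where it rose. The injured STR/ort joints measured 20.7, 25.7, 13.4, 24.8 and 8.86 CPM and the contralateral joints 4.52, 6.53, 3.53 and 3.83 CPM. The groups did not overlap, with means of 18.7 ± 7.34 (SD, n = 5) and 4.60 ± 1.35 CPM (SD, n = 4) and a log2 fold change of 2.02 ± 0.31 (SE, adjusted p = 1.73e-05). At 1-day injured STR/ort joints had measured 2.65, 2.53, 2.21, 3.29 and 6.58 CPM and their contralateral joints 6.48, 4.79, 5.42, 10.4 and 4.04 CPM. That difference of -0.88 ± 0.33 (SE, adjusted p = 0.0930) did not pass, and injured replicate 5 stood above the rest of its group. At 1-week the log2 fold change was 0.68 ± 0.27 (SE, adjusted p = 0.116) in C57BL/6 and 0.16 ± 0.32 (SE, adjusted p = 0.905) in MRL/MpJ, neither of which passed. The highest mean Myh3 of the 21 groups was that of injured STR/ort joints at 2-weeks, above that of 1-week. With the animal as a block, the log2 fold change there was 0.22 ± 0.17 (SE, adjusted p = 0.430), which was not called. Since 2-weeks is another batch, its Myh3 levels were not tested against those of 1-week.

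Perinatal myosin, Myh8, rose in STR/ort at 1-week as well. The injured STR/ort joints at 1-week measured 46.8, 33.7, 34.8, 38.2 and 21.6 CPM and the contralateral joints 15.3, 21.3, 14 and 19.8 CPM. They did not overlap, and the log2 fold change was 0.99 ± 0.21 (SE, adjusted p = 0.000741). In C57BL/6 and MRL/MpJ at 1-week the log2 fold changes of Myh8 were 0.042 ± 0.20 (SE, adjusted p = 0.944) and 0.20 ± 0.21 (SE, adjusted p = 0.766). At 2-weeks, where the labels name the same animal for both joints, the log2 fold change in C57BL/6 was 0.63 ± 0.27 (SE, adjusted p = 0.147), and with the animal as a block it was 0.62 ± 0.20 (SE, adjusted p = 0.0489), which was called.

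Actc1, the cardiac actin that fetal and regenerating skeletal fibres share, fell after injury at 1-day and 1-week in C57BL/6 and STR/ort and rose at 2-weeks in MRL/MpJ and C57BL/6. In C57BL/6 at 1-day the injured joints measured 118, 179, 144, 106 and 64.7 CPM and the contralateral joints 1063, 461, 269, 252 and 241 CPM. All injured libraries were lower, contralateral replicate 1 stood above the others, and the log2 fold change was -1.91 ± 0.35 (SE, adjusted p = 0.000189), or -1.35 without that library, still called. At 1-week the injured C57BL/6 joints measured 47.2, 74.5, 41.5, 61.3 and 38.3 CPM and the contralateral joints 186, 278, 144, 187 and 159 CPM. All injured libraries were again lower, by -1.83 ± 0.28 (SE, adjusted p = 1.71e-05) on the log2 scale. In STR/ort the log2 fold change was -1.57 ± 0.39 (SE, adjusted p = 0.00782) at 1-day, from means of 14.5 ± 4.00 and 42.6 ± 20.5 CPM (SD, n = 5 each), and -1.29 ± 0.31 (SE, adjusted p = 0.00339) at 1-week. The STR/ort groups overlapped at both times. In MRL/MpJ it was -0.83 ± 0.38 (SE, adjusted p = 0.266) at 1-day and -0.66 ± 0.30 (SE, adjusted p = 0.288) at 1-week, neither of which passed. Both were called by edgeR when the fit held no other groups (adjusted p = 0.0431 and 0.0163).

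At 2-weeks the direction of Actc1 was the opposite. In MRL/MpJ the injured joints measured 110.3, 83.2, 16.2, 167 and 97.6 CPM and the contralateral joints 34.4, 22.2, 23.0, 17.8 and 23.1 CPM. The groups overlapped, the log2 fold change was 1.97 ± 0.37 (SE, adjusted p = 0.00171), and without injured replicate 4, the library richest in fast muscle, it was 1.70 (adjusted p = 0.00678). In C57BL/6 the injured joints measured 806, 1273, 1047, 1054 and 1231 CPM and the contralateral joints 224, 437, 602, 467 and 443 CPM. They did not overlap, and the log2 fold change was 1.32 ± 0.34 (SE, adjusted p = 0.0119). In STR/ort, from means of 75.1 ± 24.8 and 38.4 ± 15.6 CPM (SD, n = 5 each), it was 0.98 ± 0.36 (SE, adjusted p = 0.0703). With the animal as a block the values were 1.75 ± 0.31 (SE, adjusted p = 0.00328), 1.37 ± 0.27 (SE, adjusted p = 0.00275) and 1.01 ± 0.29 (SE, adjusted p = 0.0237) in the same order, so that the STR/ort difference was called as well. Since 2-weeks is another batch, the turn between 1-week and 2-weeks was not tested.

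**Figure D2:**
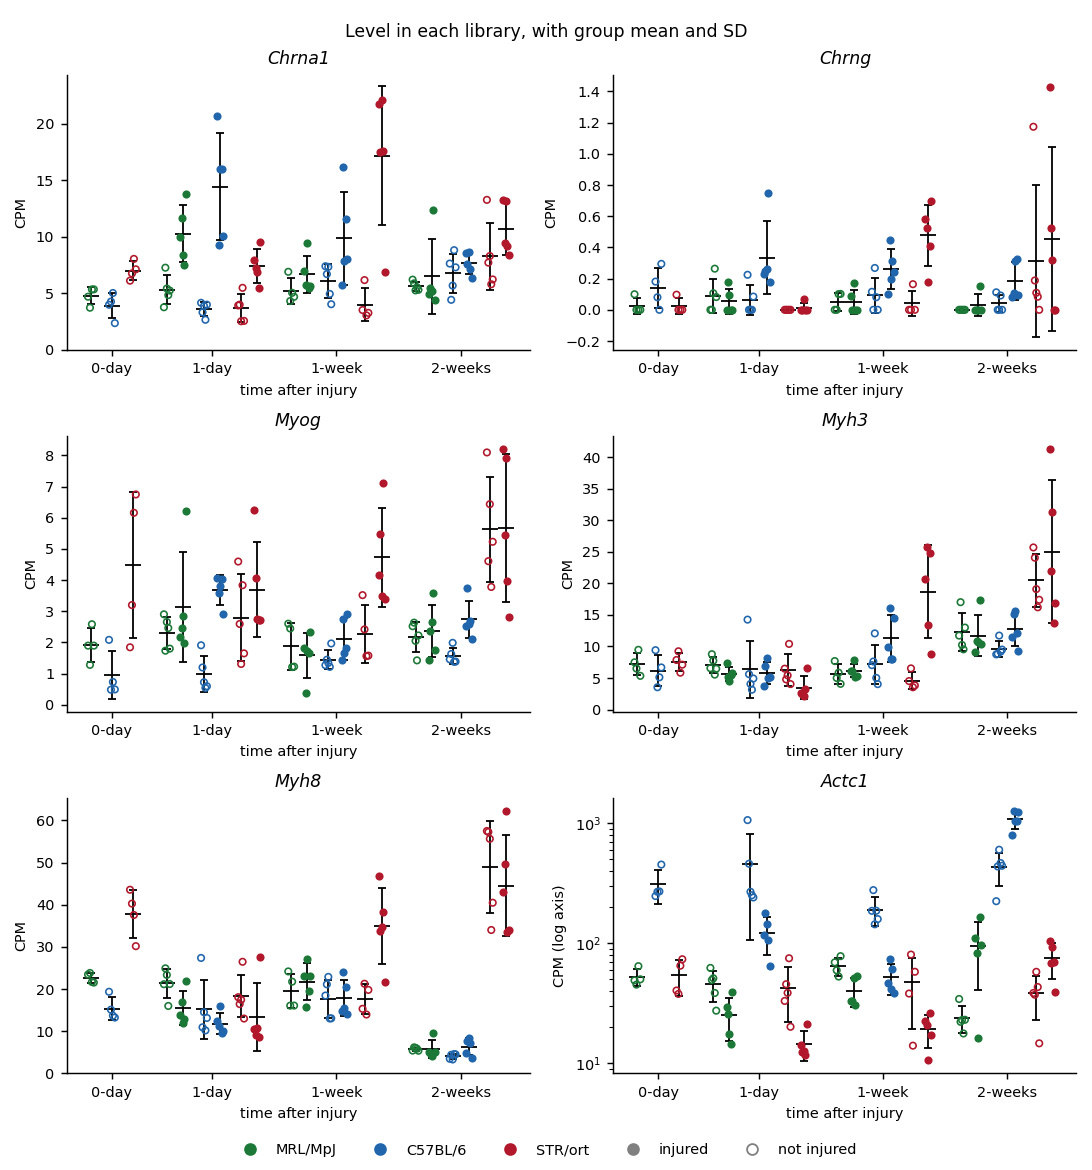
Levels in CPM of Chrna1, Chrng, Myog, Myh3, Myh8 and Actc1 (logarithmic axis for Actc1) in each library by time, with filled points for injured and open points for uninjured joints, MRL/MpJ in green, C57BL/6 in blue, STR/ort in red, and the mean and SD of each group. Injured STR/ort joints stand above their contralateral joints in Chrna1, Myh3 and Myh8 at 1-week, and Myh8 lies far higher in STR/ort than in the other strains at 2-weeks.

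Ncam1, an adhesion molecule of nerve, of satellite cells and of denervated fibres, varied little between groups. Its group means lay between 46.4 and 76.4 CPM, the highest being that of injured STR/ort joints at 1-week. In that contrast its log2 fold change of 0.39 ± 0.097 (SE, adjusted p = 0.00447) passed the adjusted p but not the fold threshold. Ncam1 was called in none of the 9 injury contrasts by the full rule. Runx1t1, a transcriptional co-repressor known as a fusion partner of RUNX1 in leukaemia, was called in C57BL/6 at 1-week, where the injured joints measured 9.58, 10.1, 10.6, 10.7 and 12.8 CPM and the contralateral joints 4.73, 6.43, 6.53, 6.80 and 6.09 CPM. All injured libraries were higher, and the log2 fold change was 0.84 ± 0.17 (SE, adjusted p = 0.000771). All 4 fibroblast marker genes were higher in the same contrast. At 2-weeks it was 0.54 ± 0.14 (SE, adjusted p = 0.0129) in C57BL/6 and 0.55 ± 0.15 (SE, adjusted p = 0.0113) in STR/ort, both past the adjusted p and below the fold of 1.5.

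Whether the strains differed in their response was tested by the interaction of strain and injury. At 1-week 2 of the 10 genes were called between STR/ort and MRL/MpJ, where 0.884% of all genes were. The injury response of Chrna1 was higher in STR/ort by 1.72 ± 0.44 (SE, adjusted p = 0.0482) on the log2 scale and that of Myh3 by 1.86 ± 0.45 (SE, adjusted p = 0.0329). That of the smooth muscle gene Acta2 was higher as well, by 1.14 ± 0.28 (SE, adjusted p = 0.0402), while Cnn1 and Myh11 were not called. The part of smooth muscle was not tested. Between STR/ort and C57BL/6 the differences were 1.37 ± 0.41 (SE, adjusted p = 0.132) for Chrna1, 1.34 ± 0.42 (SE, adjusted p = 0.146) for Myh3 and 0.95 ± 0.28 (SE, adjusted p = 0.125) for Myh8, none of which passed, although all 3 had an unadjusted p under 0.05 (background 0.491%). DESeq2 called 4 values over the 3 pairs of strains. With replicate number as a block Chrna1 and Myh3 were called in both pairs, at 1.90 ± 0.35 (SE, adjusted p = 0.00603) and 1.97 ± 0.37 (SE, adjusted p = 0.00668) against MRL/MpJ and 1.63 ± 0.32 (SE, adjusted p = 0.00931) and 1.49 ± 0.33 (SE, adjusted p = 0.0181) against C57BL/6. Myh8 was called in both pairs under the block as well, at 0.95 ± 0.22 (SE, adjusted p = 0.0227) and 1.08 ± 0.21 (SE, adjusted p = 0.00891). The numbers were taken to pair the joints at 1-week in STR/ort alone, since same-numbered joints correlated down to -0.035 in C57BL/6 and 0.084 in MRL/MpJ. In STR/ort the lowest value was 0.162. Such correlations cannot decide pairing, so the block is not shown to be a pairing in any strain. The 2 calls against MRL/MpJ lay near the threshold. When 1 of the 18 libraries of STR/ort and MRL/MpJ at 1-week was left out, the Chrna1 call was kept in 3 cases, without injured MRL/MpJ replicate 3, injured STR/ort replicate 5 or contralateral STR/ort replicate 2, and the Myh3 call in 6, those 3 and contralateral MRL/MpJ replicate 4 and injured STR/ort replicates 3 and 4. The others gave adjusted p from 0.0530 to 0.141 for Chrna1 and from 0.0541 to 0.119 for Myh3. Neither gene's difference changed sign in those fits.

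At 1-day no interaction was called (background 0.318% for C57BL/6 against MRL/MpJ, 0.162% for STR/ort against MRL/MpJ and 2.66% for STR/ort against C57BL/6). The 3 with the smallest adjusted p were differences of STR/ort from C57BL/6, at -1.65 ± 0.51 (SE, adjusted p = 0.0592) for Myog, -1.04 ± 0.32 (SE, adjusted p = 0.0644) for Chrna1 and -0.67 ± 0.20 (SE, adjusted p = 0.0519) for Runx1t1. Over the 3 pairs 8 values had an unadjusted p under 0.05 by edgeR, and DESeq2 called 3. At 2-weeks 0 were called (background 0%, 0.451% and 0.0462% in the same order of pairs), 2 had an unadjusted p under 0.05 by edgeR, and DESeq2 called 0.

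Transcripts of muscle fibres were measured in the same contrasts. In injured STR/ort joints at 1-week the summed level of the 13 fast muscle genes ranged from 18860.2 to 41288 CPM, against 37477 to 70698 CPM in contralateral joints, and 11 of the 13 were lower (median log2 fold change -0.81). Of 6 slow muscle genes 4 were lower, of 3 smooth muscle genes 2 were higher, and the median log2 fold change of 5 Schwann cell genes was -0.11. Chrna1, Myh3, Myh8, Myog and Chrng rose there while fibre markers fell, and Actc1 fell with them. In C57BL/6 at 1-day the fast muscle genes summed to 44133 to 69302 CPM in injured and 48121 to 112519 CPM in contralateral joints, and the ranges overlapped. At 2-weeks the median log2 fold change of the 13 genes was 0.013 in MRL/MpJ, 0.24 in C57BL/6 and -0.031 in STR/ort.

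Markers of other cell types were measured in these contrasts too. In STR/ort at 1-week the summed level of 4 fibroblast genes ranged from 30477 to 50784 CPM in injured and 12993 to 23617 CPM in contralateral joints, with 2 of the 4 higher. Sums of 4 neutrophil genes were 4220.4 to 5975 and 6980.3 to 9343 CPM, with 2 of the 4 lower, and those of 3 osteoblast genes 1879 to 2695 and 2341 to 3474 CPM, with 2 of the 3 lower. Smooth muscle genes summed to 316 to 690.3 and 155 to 319 CPM. Of 4 chondrocyte genes 1 was higher, and the median log2 fold change of 3 macrophage genes was 0.022. In C57BL/6 at 1-day the fibroblast genes summed to 14236 to 21790.4 CPM in injured and 9778 to 14903 CPM in contralateral joints, with 1 of the 4 higher, and the macrophage genes to 441 to 526 and 309 to 373 CPM, with 1 of the 3 higher. Neutrophil genes summed to 4954 to 6256 and 7079.6 to 8608 CPM there (median log2 fold change -0.46), and 1 of the 4 chondrocyte genes was lower. In C57BL/6 at 1-week all 4 fibroblast genes were higher, with sums of 14180.4 to 21729 CPM in injured and 6017 to 9274 CPM in contralateral joints. All 6 slow muscle genes were lower there, with sums of 79.7 to 189 and 292 to 828 CPM, as were 3 of the 13 fast muscle genes and 1 of the 3 osteoblast genes, while 2 of the 4 chondrocyte genes were higher. In STR/ort at 1-day 9 of the 13 fast muscle genes and 1 of the 4 chondrocyte genes were lower, and in MRL/MpJ at 1-day 1 of the 4 fibroblast genes was higher. At 2-weeks 2 of the 4 fibroblast genes were higher in MRL/MpJ and in C57BL/6, and of the 4 chondrocyte genes 1 and 2 in the same order. The part of these cell types in the changes of the 10 genes was not tested.

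With the summed fast muscle level as a covariate, an alternative to the fits above, the STR/ort values at 1-week were 2.87 ± 0.27 (SE, adjusted p = 3.17e-08) for Chrna1, 2.61 ± 0.30 (SE, adjusted p = 4.13e-07) for Myh3, 1.55 ± 0.17 (SE, adjusted p = 2.48e-07) for Myh8 and 1.31 ± 0.35 (SE, adjusted p = 0.00704) for Myog. These rises were larger than without it, and Chrng was called too. The fast muscle level was itself mostly lower in the injured joints of this contrast, and its slope was shared by all groups of the time. Injury and muscle content are therefore not fully separated in these values. The falls of Actc1 in STR/ort were no longer called, at -0.50 ± 0.32 (SE, adjusted p = 0.373) at 1-day and -0.64 ± 0.32 (SE, adjusted p = 0.154) at 1-week. All 5 calls in C57BL/6 at 1-day were kept, with Chrna1 at 2.24, Myog at 2.19, Myod1 at 0.89 and Actc1 at -1.21. Chrna1 and Myh3 became calls in C57BL/6 at 1-week, at 1.15 ± 0.22 (SE, adjusted p = 0.000418) and 1.08 ± 0.25 (SE, adjusted p = 0.00391).

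**Figure D3:**
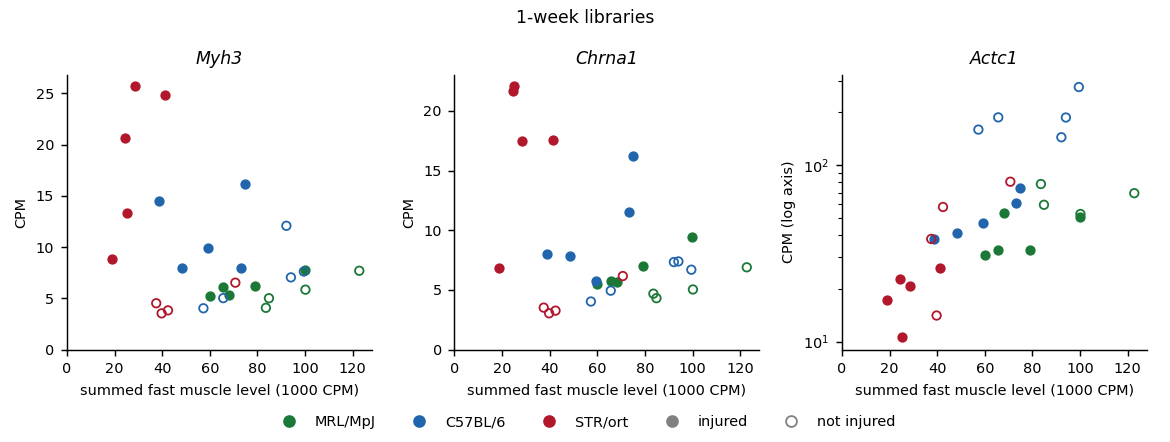
Levels of Myh3, Chrna1 and Actc1 (CPM, logarithmic axis for Actc1) against the summed level of 13 fast muscle genes (1000 CPM) in every library of 1-week, coloured by strain as above and filled for injured joints. The injured STR/ort libraries span 18860.2 to 41288 CPM of fast muscle genes and have the highest mean Chrna1, 17.2 CPM.

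**Figure D4:**
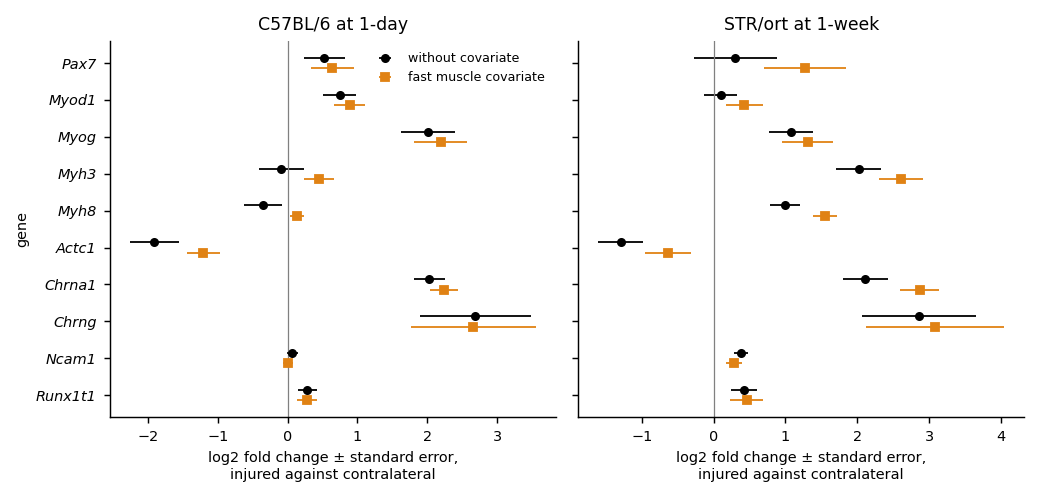
Log2 fold change between injured and contralateral joints with its standard error, without and with the fast muscle covariate, for the 10 genes in C57BL/6 at 1-day and STR/ort at 1-week. Chrna1 goes from 2.11 to 2.87 and Actc1 from -1.29 to -0.64 in STR/ort, and the points of Chrng rest on 18 against 3 and 22 against 2 counts.

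Within groups, the correlation of each gene's log2 CPM with the log2 fast muscle level was computed over 100 libraries after removal of group means. Pearson's r was 0.79 for Myh8, 0.67 for Myh3, 0.65 for Chrna1, 0.54 for Actc1, 0.48 for Myod1, 0.46 for Pax7, 0.37 for Myog and 0.20 for Chrng. It was -0.055 for Runx1t1 and -0.49 for Ncam1. Both axes come from the same libraries and share their scaling, so these values are a description.

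Injured joints at 1-week were compared with injured joints at 1-day, which belong to 1 batch. In STR/ort 6 of the 10 genes were called (5 higher and 1 lower, background 13.9%, with 9.02% higher and 4.87% lower). Myh3 went from 3.45 ± 1.79 to 18.7 ± 7.34 CPM (SD, n = 5 each), a log2 fold change of 2.43 ± 0.31 (SE, adjusted p = 1.76e-09). Myh8 rose by 1.39 ± 0.23 (SE, adjusted p = 9.77e-07), Chrna1 by 1.21 ± 0.23 (SE, adjusted p = 1.87e-05) and Runx1t1 by 0.97 ± 0.16 (SE, adjusted p = 7.2e-07). Chrng went from 1 count to 22, a ratio of 25.8 (95% counting interval 4.171 to 1065, adjusted p = 9.35e-05). Myod1 was the gene that fell, with a log2 fold change of -0.69 ± 0.22 (SE, adjusted p = 0.0115), and this call was lost without the 1-day replicate 1 (adjusted p = 0.0857) or the 1-week replicate 3 (adjusted p = 0.0703). Between the same joints all 3 smooth muscle genes and all 4 fibroblast genes were higher at 1-week, the fibroblast sums going from 12988 to 15574 to 30477 to 50784 CPM. Of the 4 chondrocyte genes 2 were higher, and 4 of 6 slow muscle, 2 of 3 osteoblast, 1 of 5 Schwann cell and 1 of 13 fast muscle genes were lower. The part of these cell types was not tested.

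In MRL/MpJ 2 genes were called between these times (background 3.11%, with 2.26% higher and 0.843% lower), Myod1 at -0.87 ± 0.20 (SE, adjusted p = 0.00263) and Runx1t1 at 0.75 ± 0.15 (SE, adjusted p = 0.000414). In C57BL/6 3 were called (background 4.47%, with 1.73% higher and 2.73% lower), Myod1 at -0.89 ± 0.22 (SE, adjusted p = 0.00257), Actc1 at -1.21 ± 0.32 (SE, adjusted p = 0.00593) and Myh3 at 0.99 ± 0.30 (SE, adjusted p = 0.0162). The Myh3 call was lost without the 1-day replicate 1 (adjusted p = 0.0574) or 4 (0.0543) or the 1-week replicate 2 (0.0654). Myod1 was lower at 1-week in all 3 strains. All 3 macrophage genes were lower at 1-week in injured C57BL/6, with sums going from 441 to 526 to 260.1 to 311 CPM, as was 1 of the 3 osteoblast genes, and in MRL/MpJ 2 of the 4 fibroblast genes and 1 of the 4 chondrocyte genes were higher.

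The contralateral joint was set against 0-day joints of the same strain. Contralateral joints came from older mice with an injured other knee, which had received isoflurane and buprenorphine. The effects of injury, agents and age cannot be told apart in this comparison. In STR/ort 3 of the 10 genes were lower at 1-day (background 9.92%, with 2.58% higher and 7.35% lower) and 4 at 1-week (background 13.6%, with 5.37% higher and 8.2% lower). Myh8 measured 43.6, 40.3, 37.6 and 30.2 CPM at 0-day, 18.1, 16.5, 17.5, 26.5 and 13 CPM in contralateral joints at 1-day and 15.3, 21.3, 14 and 19.8 CPM in those at 1-week. All 0-day libraries were higher than all contralateral libraries at 1-day, and the log2 differences were -1.05 ± 0.23 (SE, adjusted p = 0.000331) and -1.13 ± 0.25 (SE, adjusted p = 0.000282). Myod1 differed by -0.95 ± 0.23 (SE, adjusted p = 0.00122) and -0.99 ± 0.25 (SE, adjusted p = 0.00163), Chrna1 by -0.92 ± 0.28 (SE, adjusted p = 0.0102) and -0.84 ± 0.31 (SE, adjusted p = 0.0295), and Myog at 1-week by -1.02 ± 0.39 (SE, adjusted p = 0.0367). The Chrna1 call at 1-week was lost without 0-day replicate 3 or 4 or contralateral replicate 1, 3 or 4 (adjusted p from 0.0605 to 0.103), and that of Myog without 0-day replicate 3 or 4 or contralateral replicate 2, 3 or 4 (0.0563 to 0.192). All 13 fast muscle genes were lower as well, by medians of -1.12 and -1.21, and with the fast muscle covariate 0 of these 7 calls were kept. The summed fast muscle level of contralateral STR/ort joints did not overlap that of 0-day joints at either time. The covariate therefore cannot separate muscle content from the other differences of these groups. In MRL/MpJ (background 0.0924% at 1-day and 0% at 1-week) and C57BL/6 (background 0.0693% and 5.72%) 0 of the 10 genes were called at either time by edgeR or DESeq2, and 3 values, all of C57BL/6 at 1-week, had an unadjusted p under 0.05. Actc1 was called lower in C57BL/6 at 1-week under 4 alternatives, at -1.10 (adjusted p = 0.00395) with 1 RUVg factor, -1.10 (adjusted p = 0.00390) with 2, -1.19 (adjusted p = 0.000886) with the fast muscle covariate and -0.72 (adjusted p = 0.0269) when the fit held no other groups. In STR/ort the macrophage gene Cd68 was called higher at 1-day (0.71) and 1-week (0.72) and the osteoblast gene Ibsp at 1-week (0.78). The other genes of these lists were not called there. In C57BL/6 at 1-week the osteoblast genes Bglap (-1.20), Ibsp (-0.72) and Sp7 (-0.82) were called lower. The part of these cell types was not tested.

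The strains were also compared before injury. At 0-day 2 of the 10 were called between C57BL/6 and MRL/MpJ (1 higher and 1 lower, background 15.9%, with 9.64% higher and 6.26% lower), 2 between STR/ort and MRL/MpJ (both higher, background 14.8%, with 8.34% higher and 6.44% lower) and 5 between STR/ort and C57BL/6 (4 higher and 1 lower, background 13.8%, with 7.82% higher and 5.99% lower). The counts of both pairs with MRL/MpJ were near the background. Actc1 measured 49.1, 45.3, 64.6 and 50.2 CPM in MRL/MpJ, 248, 269, 271 and 453 CPM in C57BL/6 and 40.5, 37.9, 65.2 and 73.8 CPM in STR/ort. The C57BL/6 libraries lay above all others, by 2.62 ± 0.21 (SE, adjusted p = 2.62e-08) over MRL/MpJ, and STR/ort differed from C57BL/6 by -2.56 ± 0.21 (SE, adjusted p = 3.57e-08). Myh8 measured 23.5, 23.8, 21.7 and 21.6 CPM in MRL/MpJ, 19.4, 15.1, 13.7 and 13.3 CPM in C57BL/6 and 43.6, 40.3, 37.6 and 30.2 CPM in STR/ort. Here STR/ort was the highest strain, by 0.75 ± 0.12 (SE, adjusted p = 8.97e-05) over MRL/MpJ and 1.27 ± 0.12 (SE, adjusted p = 2.79e-07) over C57BL/6.

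Myog measured 1.90, 1.28, 2.58 and 1.90 CPM in MRL/MpJ at 0-day, 2.08, 0.482, 0.730 and 0.491 CPM in C57BL/6 and 1.84, 3.20, 6.16 and 6.75 CPM in STR/ort. It was higher in STR/ort, by 2.18 ± 0.43 (SE, adjusted p = 0.000701) over C57BL/6 and 1.25 ± 0.41 (SE, adjusted p = 0.0263) over MRL/MpJ. Without any 1 of MRL/MpJ replicates 1, 2 and 4 and STR/ort replicates 3 and 4 the difference from MRL/MpJ was not called (adjusted p from 0.0522 to 0.0925). Chrna1 was higher in STR/ort than in C57BL/6 by 0.79 ± 0.19 (SE, adjusted p = 0.00331) and Myod1 by 0.73 ± 0.17 (SE, adjusted p = 0.00257), and the log2 difference of Myod1 between C57BL/6 and MRL/MpJ was -0.65 ± 0.17 (SE, adjusted p = 0.00707). Its adjusted p was 0.0519 when MRL/MpJ replicate 1 was left out, and its fold was under the threshold when C57BL/6 replicate 4 was. Fast muscle differed between the strains too, with 12 of the 13 genes lower in C57BL/6 than in MRL/MpJ and 11 of the 13 higher in STR/ort than in C57BL/6. All 6 slow muscle genes were higher in STR/ort than in either other strain. With the fast muscle covariate 2 of the 5 calls between STR/ort and C57BL/6 were kept, those of Actc1 and Myh8. Chrna1 was then -0.082 ± 0.41 (SE, adjusted p = 0.969), Myog -0.55 ± 0.86 (SE, adjusted p = 0.890) and Myod1 0.099 ± 0.36 (SE, adjusted p = 0.957). The fast muscle sums were 45370 to 72979 CPM in C57BL/6 and 102289 to 119572 CPM in STR/ort. These ranges do not overlap, so strain and muscle content cannot be told apart in these values.

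Injured joints of the strains were also compared with each other. In injured joints at 1-week 6 of the 10 genes were called between STR/ort and MRL/MpJ (background 29.5%), 6 between STR/ort and C57BL/6 (background 25.1%) and 2 between C57BL/6 and MRL/MpJ (background 9.47%). Chrna1 was higher in injured STR/ort by 1.33 ± 0.26 (SE, adjusted p = 7.57e-05) over MRL/MpJ and 0.77 ± 0.25 (SE, adjusted p = 0.0107) over C57BL/6. Myh3 was higher by 1.57 ± 0.27 (SE, adjusted p = 1.52e-05) over MRL/MpJ, and Myog by 1.5 ± 0.29 (SE, adjusted p = 5.97e-05). Myh8 was also higher there at 0.66, a fold under the threshold without injured MRL/MpJ replicate 2 or injured STR/ort replicate 1, and Actc1 lower at -1.08. Against C57BL/6 the other called genes were Myog at 1.12, Myh8 at 0.95, Myh3 at 0.70, Ncam1 at 0.59 and Actc1 at -1.46. The Myh3 call was lost without injured C57BL/6 replicate 3 or 4 or injured STR/ort replicate 2 or 4, and that of Ncam1 without injured STR/ort replicate 1 or 3. The Ncam1 call was kept under 6 of 10 alternative fits, and its lowest value was 0.42. Between C57BL/6 and MRL/MpJ they were Myh3 at 0.87 and Myod1 at -0.62, the first lost without 1 of 4 libraries (injured MRL/MpJ replicate 4 or 5 or injured C57BL/6 replicate 2 or 5) and the second without 1 of 7 (injured MRL/MpJ replicate 1, 3 or 5 or injured C57BL/6 replicate 1, 2, 3 or 4). Chrng had 22 counts in injured STR/ort against 3 in injured MRL/MpJ, a ratio of 7.924 (95% counting interval 2.381 to 41.35). Markers of other cells were also higher in injured STR/ort over MRL/MpJ and C57BL/6. They were the smooth muscle genes Acta2 (1.60 and 1.40) and Cnn1 (0.98 and 1.14) and the osteoblast gene Ibsp (1.40 and 1.13). Myh11, Bglap and Sp7 of these lists were not called. The part of these cell types was not tested. In contralateral joints of the same time 2 of the 10 genes were called between STR/ort and MRL/MpJ (background 24.4%), 1 between STR/ort and C57BL/6 (background 22.2%) and 1 between C57BL/6 and MRL/MpJ (background 8.53%). Lower in contralateral STR/ort than in MRL/MpJ were Pax7 at -1.42, a call lost without contralateral MRL/MpJ replicate 1 or 3 or contralateral STR/ort replicate 1, 3 or 4, and Myod1 at -0.76. With 1 and 2 factors of RUVg Pax7 turned to 0.19 and 0.20, and with 2 factors Myod1 turned to 0.42. The difference of Actc1 between injured STR/ort and MRL/MpJ turned to 0.13 with 2 factors and to 0.041 with the fast muscle covariate. None of these turned values was called. Other differences of injured STR/ort widened. With 2 RUVg factors Chrna1 was 3.24 over MRL/MpJ and 2.31 over C57BL/6, Myh3 3.90 and 2.30, and Myh8 2.04 and 2.07. With the fast muscle covariate they were 2.73 and 1.84 for Chrna1, 2.69 and 1.5 for Myh3 and 1.70 and 1.75 for Myh8, all of them called under both alternatives. Myog was not called with 1 or 2 RUVg factors, at 1.40 and 2.02 over MRL/MpJ. The call in each of the other contralateral pairs was Actc1.

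At 2-weeks STR/ort stood apart in Myh8 in both joints. Injured joints measured 43.0, 49.7, 62.3, 33.6 and 34.1 CPM in STR/ort, 4.98, 4.86, 4.12, 9.51 and 5.08 CPM in MRL/MpJ and 4.83, 7.61, 8.32, 7.24 and 3.75 CPM in C57BL/6. Every STR/ort library was above every library of the other strains, by 2.96 ± 0.20 (SE, adjusted p = 8.42e-13) over MRL/MpJ and 2.83 ± 0.20 (SE, adjusted p = 5.73e-12) over C57BL/6. In contralateral joints the differences were 3.07 ± 0.21 (SE, adjusted p = 8.3e-13) and 3.58 ± 0.22 (SE, adjusted p = 1.4e-13). The mean log2 ratio of Myh8 to the summed fast muscle level was -11.1 in injured STR/ort, against -11.5 at 0-day. It was -14.0 in injured MRL/MpJ and -14.1 in injured C57BL/6, against -12.2 and -11.9 at 0-day. The wide gap thus came with low values in the other strains. Since 2-weeks is another batch, these changes were not tested. Myh3 and Myog were higher in STR/ort too, Myh3 by 1.10 and Myog by 1.28 over MRL/MpJ in injured joints (adjusted p = 0.000143 and 0.000115). The called genes numbered 5 between injured STR/ort and MRL/MpJ (background 18.9%), 4 between injured STR/ort and C57BL/6 (10.4%) and 1 between injured C57BL/6 and MRL/MpJ (11.5%). In contralateral joints they numbered 4, 4 and 1 in that order (background 13.8%, 9.78% and 9.83%). Chrng was among the calls between STR/ort and MRL/MpJ in both joints, and was lost without injured STR/ort replicate 1 in injured joints and, in contralateral joints, without STR/ort replicate 1 or any 1 of the MRL/MpJ libraries. The fast muscle genes summed to 81750.4 to 116311 CPM in injured STR/ort, 72906 to 157503 CPM in MRL/MpJ and 93970.5 to 122706 CPM in C57BL/6, ranges that overlap.

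Actc1 differed widely between the strains after injury as well. Its log2 difference between C57BL/6 and MRL/MpJ was 2.28 in injured and 3.36 in contralateral joints at 1-day, 0.38 and 1.55 at 1-week, and 3.51 and 4.17 at 2-weeks. All of these were called except that of injured joints at 1-week (adjusted p = 0.381). STR/ort was lower than C57BL/6 in all 6 such contrasts, by log2 differences from -3.84 in injured joints at 2-weeks to -1.46 in injured joints at 1-week, each of them called. The last of these shrank to -0.85 and -0.59 with 1 and 2 RUVg factors and to -0.59 with the fast muscle covariate, and was then not called. At 1-day the called genes numbered 4 between injured C57BL/6 and MRL/MpJ (background 16.3%), 2 between injured STR/ort and MRL/MpJ (20.3%) and 4 between injured STR/ort and C57BL/6 (12.4%). Among them were Chrna1 and Runx1t1, lower in injured STR/ort than in injured C57BL/6 with log2 differences of -0.97 ± 0.20 (SE, adjusted p = 0.000534) and -0.85 ± 0.14 (SE, adjusted p = 2.96e-05), and Pax7, lower in injured STR/ort than in injured MRL/MpJ with -1.26 ± 0.28 (SE, adjusted p = 0.000701). The fast muscle genes averaged 31945 CPM in injured STR/ort, 52514 CPM in injured C57BL/6 and 71050.4 CPM in injured MRL/MpJ. With the fast muscle covariate Chrna1 was -0.53 ± 0.21 (SE, adjusted p = 0.0700) and Pax7 -0.85 ± 0.41 (SE, adjusted p = 0.179), neither of them called. RUVg also ended both calls, with 1 factor at log2 differences of -0.25 (adjusted p = 0.533) and -0.39 (adjusted p = 0.735), while the Runx1t1 call was kept under these alternatives. The other calls in injured joints were Actc1 in both pairs with C57BL/6, Chrng in the same pairs, Myod1 in both pairs with MRL/MpJ and Runx1t1 between C57BL/6 and MRL/MpJ. Without injured MRL/MpJ replicate 2 or injured C57BL/6 replicate 4 the Runx1t1 call was lost, and without the latter that of Chrng between C57BL/6 and MRL/MpJ. Myod1 between C57BL/6 and MRL/MpJ was not called without injured MRL/MpJ replicate 2 or 5 or injured C57BL/6 replicate 1, 2 or 5, nor between STR/ort and MRL/MpJ without injured MRL/MpJ replicate 5. In the latter pair RUVg turned Myod1 from -0.77 to 0.31 and 0.33 with 1 and 2 factors. In contralateral joints at 1-day the called genes numbered 4, 3 and 2 in that order (background 14.8%, 22.6% and 10.5%). They were Actc1, Myod1, Myog and Pax7 in the first pair, Myod1, Pax7 and Chrng in the second and Actc1 and Myog in the third. In the second pair Chrng rested on 0 counts in STR/ort against 5 in MRL/MpJ, and its call was kept only without MRL/MpJ replicate 1 or 2 when single libraries were left out. That of Pax7, at -0.75, was kept only without MRL/MpJ replicate 5 or STR/ort replicate 2, and RUVg turned it to 0.083 and 0.064 with 1 and 2 factors, and Myod1 from -0.92 to 0.085 and 0.18. The Myog call of the first pair was lost without C57BL/6 replicate 4 and under RUVg. RUVg also ended the calls of Myod1 and Pax7 in that pair, which went from -0.77 to -0.27 and -0.18 and from -0.91 to -0.48 and -0.49 with 1 and 2 factors. Pax7 was not called with the fast muscle covariate either, at -0.73. Myh8 was not called at 1-day in the fits above, but with the fast muscle covariate it was called higher in injured STR/ort by 1.06 ± 0.13 (SE, adjusted p = 2.15e-07) over MRL/MpJ and 0.97 ± 0.11 (SE, adjusted p = 1.38e-07) over C57BL/6, and in contralateral STR/ort by 0.80 and 0.79. Both RUVg fits called it in these 4 pairs as well. Actc1 between injured STR/ort and MRL/MpJ, not called above, took opposite directions under alternatives. It was called at -0.80 (adjusted p = 0.0151) when the fit held no other groups. With 1 and 2 RUVg factors it was called at 1.36 (adjusted p = 0.0425) and 1.27 (adjusted p = 0.0302). In contralateral joints of this pair it was called higher, at 1.94 and 1.69 with RUVg and 1.02 with the covariate.

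Other genes of regenerating muscle and of the nerve-muscle junction were counted from lists of 15 and 14 genes, of which 14 and 13 were in the table. Of the 14 regeneration genes, 4 were higher and 1 lower after injury in STR/ort at 1-week (background 9.21%, with 5.67% higher and 3.54% lower), with a median log2 fold change of 0.39 against -0.033 for all genes. Tnnt2, the cardiac troponin T that regenerating fibres also make, rose from 4.45 ± 1.12 CPM (SD, n = 4) to 36.8 ± 13.5 CPM (SD, n = 5), a log2 fold change of 3.06 ± 0.28 (SE, adjusted p = 4.56e-09). Tmem8c, which encodes the fusion protein myomaker, rose from 0.180 ± 0.120 to 2.69 ± 0.676 CPM, a log2 fold change of 3.93 ± 0.50 (SE, adjusted p = 1.15e-06). Myl4, the embryonic myosin light chain, rose by 0.95 ± 0.17 (SE, adjusted p = 8.86e-05). Tmem8c was also called at 1-week in MRL/MpJ, at 2.58 ± 0.67 (SE, adjusted p = 0.0173), and in C57BL/6, at 2.09 ± 0.51 (SE, adjusted p = 0.00510), and in STR/ort at 2-weeks, at 2.49 ± 0.68 (SE, adjusted p = 0.0118). In the other contrasts the counts at 1-day were 1 higher and 1 lower in MRL/MpJ (background 2.02%), 3 and 1 in C57BL/6 (5.6%) and 1 and 1 in STR/ort (4.31%). At 1-week they were 1 and 1 in MRL/MpJ (3.13%) and 1 and 2 in C57BL/6 (5.82%), and at 2-weeks 2 were higher in STR/ort (4.66%). The list's median at 2-weeks was -0.072 in MRL/MpJ and 0.13 in C57BL/6.

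Ankrd1, a stress-induced partner of the fibre's titin filament, was called at 1-day in all 3 strains. It rose in MRL/MpJ from 31.4 ± 13.9 to 367 ± 176 CPM (SD, n = 5 each), a log2 fold change of 3.58 ± 0.40 (SE, adjusted p = 3.41e-07). It also rose in C57BL/6, by 2.12 ± 0.40 (SE, adjusted p = 0.000289), and in STR/ort, by 2.28 ± 0.38 (SE, adjusted p = 0.000103). In C57BL/6 Tnnt2 rose by 2.06 ± 0.26 (SE, adjusted p = 7.03e-07) and the laminin receptor Itga7 by 1.17 ± 0.18 (SE, adjusted p = 2.52e-05). Csrp3, a Z-disc protein most abundant in slow fibres and heart, fell at 1-day in MRL/MpJ, with a log2 fold change of -1.12 ± 0.25 (SE, adjusted p = 0.00625), and in STR/ort, with -1.27 ± 0.26 (SE, adjusted p = 0.00143). The actin-binding protein Xirp1 fell at 1-week in MRL/MpJ, with -0.86 ± 0.25 (SE, adjusted p = 0.0369), and in C57BL/6, with -1.10 ± 0.24 (SE, adjusted p = 0.00154).

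Of the 13 junction genes, 4 were higher and 0 lower after injury in C57BL/6 at 1-day (background 5.6%, with 4.26% higher and 1.34% lower), with a median of 0.20 against -0.019 for all genes. They included the receptor subunit Chrnd at 1.29 ± 0.30 (SE, adjusted p = 0.00233), the receptor subunit Chrnb1 at 0.72 ± 0.19 (SE, adjusted p = 0.00679) and the kinase Musk, which clusters receptors under the nerve, at 0.70 ± 0.17 (SE, adjusted p = 0.00381). In STR/ort at 1-week 2 were higher and 2 lower (background 9.21%). Chrnd rose from 0.540 ± 0.375 CPM (SD, n = 4) to 1.67 ± 0.805 CPM (SD, n = 5), a log2 fold change of 1.64 ± 0.45 (SE, adjusted p = 0.00836), and Runx1, a transcription factor that rises in denervated muscle and is also abundant in blood cells, rose by 0.90 ± 0.10 (SE, adjusted p = 1.7e-07). Ache, the esterase that clears acetylcholine, fell, with a log2 fold change of -0.65 ± 0.16 (SE, adjusted p = 0.00446). Runx1 also rose in C57BL/6 at 1-week, by 0.60 ± 0.096 (SE, adjusted p = 4.18e-05), and in STR/ort at 2-weeks, by 0.60 ± 0.087 (SE, adjusted p = 5.16e-06). In MRL/MpJ the list's median was 0.15 at 1-day, -0.030 at 1-week and -0.075 at 2-weeks, and in STR/ort at 1-day it was -0.071.

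The genes whose group means followed each member most closely were found among 14416 genes (14417 for Pax7) with a mean of at least 1 CPM, by Pearson's r of log2 CPM over the 21 groups. Chrng was left out, since its mean count over all libraries was under 10. For Myh3 they were Hivep2 (0.91), Kcp (0.91) and Kremen1 (0.90), and for Myh8 Cbln3 (0.85), Knop1 (0.83) and Pon3 (0.81). Myog was followed by Gja5 (0.88), Uso1 (0.86) and Lrrn1 (0.84), and Myod1 by Trim63 (0.86), Pde4b (0.85) and Art5 (0.85), the first a ubiquitin ligase of wasting muscle. Chrna1 was followed by Pcdh19, Hdlbp and Atp8b1, each at 0.81, and Pax7 by Kptn (0.96), Card10 (0.96) and Rhbdd3 (0.95). For Actc1 they were C130080G10Rik (0.93), Fbxo44 (0.90) and Mccc1 (0.89), for Ncam1 Tdrd3 (0.86), Fbxo27 (0.86) and Manbal (0.85), and for Runx1t1 Susd2 (0.83), Agtr2 (0.83) and Aplp1 (0.76). Of these 27 nearest genes, 0 were other members. The groups share strains, times and a batch, so these values describe likeness across these groups only.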

How the data were processed

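RNA of 100 knee joint libraries (21 groups of 4 or 5) was used as whole-number gene counts deposited by the authors, who had aligned poly(A)+ reads to mm10 with TopHat2 (version 2.0.11) and counted RefSeq genes with featureCounts. Of 17313 entries 3 repeats were dropped. The requirement of at least 2 counts in 5 libraries removed 0 of the remaining 17310 genes. Total counts limit the precision of genes with few reads, above all Chrng and Pax7.

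Counts were tested in R 4.3.3 with edgeR (version 4.0.16), TMM factors and the quasi-likelihood test with Benjamini-Hochberg adjustment over all genes. Every strain and joint had its own mean in a separate fit for each time, and libraries of 0-day, 1-day and 1-week entered 1 fit for comparisons between times. The authors used RUVSeq before edgeR, and their number of factors is not given in the sources used here, so RUVg with 1 and 2 factors from 25 housekeeping genes was an alternative. Others were RLE size factors, housekeeping scaling, no filter, filterByExpr, the compared groups alone, a fast muscle covariate, a single fit over the whole series, a replicate block, DESeq2 (version 1.42.0) and each library left out in turn. Methods were tested on simulated data.

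The 10 genes and all lists were chosen with earlier results of these data known. All 10 were tested in every comparison. Of the other regeneration and junction genes, up to 3 per list with the smallest adjusted p were named in each injury comparison, except for results not reported here. At 2-weeks the labels name 1 animal for both joints, so replicate numbers pair them. At 1-week the 4 pairs of STR/ort had correlated deviations from the group means (0.162 to 0.370) and were taken as pairs. Their lowest value was above the lowest of every other strain at 1-day and 1-week. All pairs also had positive values in MRL/MpJ at 1-week (0.0845 to 0.177) and in C57BL/6 at 1-day (0.0586 to 0.144). At 2-weeks MRL/MpJ joints labelled with the same animal gave -0.279 to 0.0824, so the correlation cannot decide which numbers are pairs.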

Additional observations from a re-analysis of the deposited data

Results flagged for a closer look

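Single libraries lay apart from the rest of their group in 26 of 208 sets of 1 gene and 1 group (2 further sets had no spread). Chance gives about 1 in 20 for independent and normally spread values. These genes share libraries, and a Chrng group with counts in only 1 library is always flagged, so no excess over chance is shown. Of the 26 sets, 5 came from injured MRL/MpJ replicate 4 at 2-weeks, which measured 17.4 CPM of Myh3, 9.51 of Myh8, 12.9 of Myod1, 12.4 of Chrna1 and 0.152 of Chrng, each the highest of its group. That library also had the highest summed fast muscle level of all libraries, 157503 CPM. Contralateral C57BL/6 replicate 1 at 1-day was highest in Myh3 (14.3 CPM), Myh8 (27.4 CPM) and Actc1 (1063 CPM), and injured STR/ort replicate 5 at 1-day was highest in Myh3 (6.58 CPM), Myh8 (27.6 CPM) and Actc1 (21.5 CPM). These 2 libraries likewise had the highest fast muscle level of their groups, at 112519 and 56105 CPM, and the part of muscle content in these values was not tested.

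Injured C57BL/6 replicate 4 at 1-day was highest in Pax7 (0.974 CPM) and Chrng (0.749 CPM). The highest library of its group was also C57BL/6 replicate 1 at 0-day in Myog (2.08 CPM), C57BL/6 replicate 4 at 0-day in Actc1 (453 CPM), injured MRL/MpJ replicate 5 at 1-day in Myog (6.22 CPM), contralateral STR/ort replicate 2 at 1-week in Chrna1 (6.17 CPM) and contralateral C57BL/6 replicate 3 at 2-weeks in Myh3 (11.7 CPM). Chrng gave 5 more such values, of which 4 rest on 1 or 2 counts, namely MRL/MpJ replicate 1 (0.0998 CPM) and STR/ort replicate 1 (0.0970 CPM) at 0-day, injured STR/ort replicate 3 at 1-day (0.0690 CPM) and contralateral STR/ort replicate 3 at 1-week (0.164 CPM). Contralateral STR/ort replicate 1 at 2-weeks held 10 counts (1.17 CPM). Runx1t1 was lowest in its group in injured MRL/MpJ replicate 2 at 1-day (4.95 CPM), injured MRL/MpJ replicate 4 at 1-week (7.16 CPM) and contralateral C57BL/6 replicate 5 at 2-weeks (5.35 CPM).

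The injury response at 1-week differed between STR/ort and MRL/MpJ by 1.72 on the log2 scale for Chrna1 and by 1.86 for Myh3, by the interaction of strain and injury in edgeR.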

How the results depend on the processing

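Of 104 calls over all comparisons, RLE size factors kept 104, no filter 104, 1 fit of all libraries 103, DESeq2 99, housekeeping scaling 97, the compared groups only 97, the fast muscle covariate 76, RUVg with 1 factor 72 and with 2 factors 69. filterByExpr kept 95 of the 95 it tested and the replicate block 19 of 21. The 175 single values of the injury contrasts and of calls elsewhere gave 3537 values under alternatives and left-out libraries. Of these, 20 changed sign with a call before or after, all under RUVg or the fast muscle covariate. Counted in this way over all 480 values, 12 changed sign with 1 RUVg factor, 16 with 2 and 9 with the covariate. The 20 were the following. With 1 and with 2 RUVg factors the STR/ort against MRL/MpJ differences became 0.31 and 0.33 for Myod1 in injured joints at 1-day, 0.085 and 0.18 for Myod1 and 0.083 and 0.064 for Pax7 in contralateral joints at 1-day, and 0.19 and 0.20 for Pax7 in contralateral joints at 1-week. Those of Chrna1 between contralateral and 0-day STR/ort joints became 0.31 and 0.22 at 1-day and 0.26 and 0.22 at 1-week. With 2 factors alone, Myod1 became 0.26 (C57BL/6 against MRL/MpJ) and Myog -0.13 (STR/ort against C57BL/6) at 0-day, and at 1-week, for STR/ort against MRL/MpJ, Actc1 became 0.13 in injured and Myod1 0.42 in contralateral joints. With the fast muscle covariate, Chrna1 became -0.082 and Myog -0.55 for STR/ort against C57BL/6 at 0-day, Actc1 0.041 for injured STR/ort against MRL/MpJ at 1-week, and Chrna1 0.068 for contralateral STR/ort at 1-week against 0-day. The cause was not tested. Housekeeping scaling moved the median of all genes by over 0.1 in 8 comparisons, by -0.174 to 0.141.

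Counts of called genes among the 10 moved as follows. For C57BL/6 against MRL/MpJ at 0-day, 2 became 1 (housekeeping scaling, RUVg with 2 factors, covariate), and for STR/ort against C57BL/6, 5 became 2 (RUVg, covariate). Contralateral joints against 0-day went from 3 to 0 at 1-day and at 1-week from 4, all of STR/ort and all lost, to 1, Actc1 in C57BL/6 (RUVg, covariate). Injury calls went from 1 to 2 in MRL/MpJ at 1-day (Myod1 under RUVg and the covariate, Actc1 with the compared groups only), from 0 to 1 in MRL/MpJ (compared groups only, block) and from 2 to 4 in C57BL/6 (RUVg, covariate, block) at 1-week, and at 2-weeks from 1 to 3 (compared groups only) or 2 (block) in C57BL/6 and from 0 to 1 in STR/ort (RUVg, covariate, compared groups only, block). Injured C57BL/6 at 1-week against 1-day went from 3 to 5 (compared groups only), and the strain pairs of injured joints at 1-week from 14 to 9 and 8 (RUVg with 1 and 2 factors). Interactions at 1-day went from 0 to 2 and 4 (RUVg with 1 and 2 factors), 1 (filterByExpr, covariate, all libraries), 2 (block) and 3 (DESeq2), and at 1-week from 2 to 1 (housekeeping scaling, compared groups only), 4 and 5 (RUVg with 1 and 2 factors), 6 (covariate, block) and 4 (DESeq2).

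With single libraries left out, counts ranged from 1 to 4 for C57BL/6 and from 1 to 3 for STR/ort against MRL/MpJ at 0-day, from 3 to 5 in C57BL/6 and from 2 to 5 in STR/ort for injury at 1-day, from 1 to 2 in C57BL/6 and from 0 to 1 in STR/ort at 2-weeks, from 2 to 4 for contralateral joints at 1-week against 0-day, and for interactions from 0 to 3 at 1-day and 0 to 4 at 1-week. The replicate block for groups that share only a number added Actc1 in MRL/MpJ (-0.79, adjusted p = 0.00627 by edgeR) and Chrna1 (0.70, adjusted p = 0.0246) and Myh3 (0.69, adjusted p = 0.0346) in C57BL/6 at 1-week, and took away Chrng in C57BL/6 at 1-day (adjusted p = 0.0545). The median correlation of same-numbered joints was 0.108 over 15 pairs at 1-day, 0.162 over 13 at 1-week and 0.213 over 15 at 2-weeks. Chrng and Pax7 are limited by depth.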
